A study of Homo sapiens with 6 samples.

Results

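The genes described are 9 core members of receptor-to-RAS signalling: the adaptors GRB2 and SHC1, the docking protein GAB1, the phosphatase PTPN11, the exchange factors SOS1 and SOS2, the RAS inhibitor NF1, and the GTPases NRAS and HRAS. They are 9 of the 35580 genes of the joined tables, and all 9 passed the filter on low counts. The set was chosen by pathway, with the control against siDDX5 values of this experiment already known, among them the lower level of GRB2 and the changed transcript shares of NF1. Every value below that sets control against siDDX5 is therefore a description of the members, and the adjusted p-values say where a member stood in a fit across all genes, not that the set was tested independently.

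The messenger RNA came from Rh30, a human alveolar rhabdomyosarcoma line that carries the PAX3-FOXO1 fusion. The 2 groups were control cells and cells with a knockdown of the RNA helicase DDX5, which the labels name siDDX5, with 3 biological replicates each. The p-values set the difference between the groups against the spread within them, in these 6 libraries. Both groups carry the fusion, all libraries are of 1 cell line, and the sequences of the small interfering RNAs and the treatment of the control cells are not given in the sources used here. DDX5 unwinds RNA and takes part in transcription and splicing, and the comparison asks which transcripts differed after its knockdown.

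Activated growth factor receptors carry phosphorylated tyrosines, which the SH2 domains of GRB2 and SHC1 bind. GRB2 holds SOS1 or SOS2 through its SH3 domains and brings them to the membrane, where they load RAS proteins with GTP; neurofibromin, the product of NF1, speeds GTP hydrolysis and returns RAS to its inactive state. Rhabdomyosarcomas without a PAX fusion often carry mutations in this pathway, while fusion-positive tumours seldom do.

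DDX5 itself stood at 1356, 1438 and 1141 CPM (counts-per-million of the library) in control replicates 1 to 3 and at 551.3, 506.0 and 397.1 CPM in siDDX5 replicates 1 to 3. Its log2 fold change was -1.44 ± 0.15 (SE, n = 3 against 3; edgeR adjusted p = 0.0115), in the direction the labels give. The control libraries held 21265569 to 26156858 estimated counts and the siDDX5 libraries 18202402 to 19971888, so every siDDX5 library was the shallower. Of 10 genes listed for alveolar rhabdomyosarcoma and the skeletal muscle lineage, 9 lay above 1 TPM (transcripts-per-million) in every library, MYOD1 and MYOG among them. TFAP2B was listed at 0 in all 6. The summed level of that list was 1196 to 1533 TPM in control and 1152 to 1224 TPM in siDDX5. Of 6 markers of other cells, 4 were below 1 TPM throughout, while PECAM1 reached 3.97 to 6.88 TPM and PTPRC 0.714 to 3.43 TPM. The summed level of these markers was 8.67 to 9.73 TPM in control and 7.17 to 7.93 TPM in siDDX5; its part in the results was not tested.

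The NF1 results turn on a few short exons. NF1 spans chr17:31094927-31382116 on the plus strand (GRCh38, GENCODE release 29). Exon 31 of the 58 exons of NF1-202 (ENST00000358273) lies at chr17:31252938-31253000, is 63 bases long and adds 21 codons inside the GTPase-activating domain. Transcripts with it encode the neurofibromin form called type II and transcripts without it type I, of which type I is known as the more active on RAS. NF1-201 (ENST00000356175) lacks that exon alone and encodes 2818 residues against 2839. NF1-205 (ENST00000456735) also skips it, but as annotated begins 105.609 kb after the start of NF1-202 and encodes 2502 residues. It is the sole holder of a 54-base exon at chr17:31367225-31367278, an in-frame exon near the end of the coding region that is known from muscle. NF1-219 (ENST00000579081) skips the 63-base exon too and is the sole holder of a 97-base exon at chr17:31299510-31299606, in which its annotated coding region ends. NF1-219 is annotated as a target of nonsense-mediated decay. The letters below are from the GENCODE transcripts, 5′ to 3′, with the named exon in capitals and 15 bases of each neighbouring exon in lower case; the junction has no capitals because it shows the neighbours joined.
NF1 alternative exon in NF1-202: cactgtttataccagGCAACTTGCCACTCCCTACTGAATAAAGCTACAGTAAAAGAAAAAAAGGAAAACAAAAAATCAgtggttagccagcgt
NF1 skipping junction in NF1-201: cactgtttataccaggtggttagccagcgt
Extra exon of NF1-205: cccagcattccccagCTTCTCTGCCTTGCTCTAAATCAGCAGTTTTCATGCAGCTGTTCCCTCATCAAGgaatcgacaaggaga
Extra exon of NF1-219: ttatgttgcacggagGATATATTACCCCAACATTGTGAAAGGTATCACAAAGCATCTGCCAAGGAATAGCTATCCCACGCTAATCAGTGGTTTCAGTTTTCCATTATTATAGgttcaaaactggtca

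**Figure D1:**
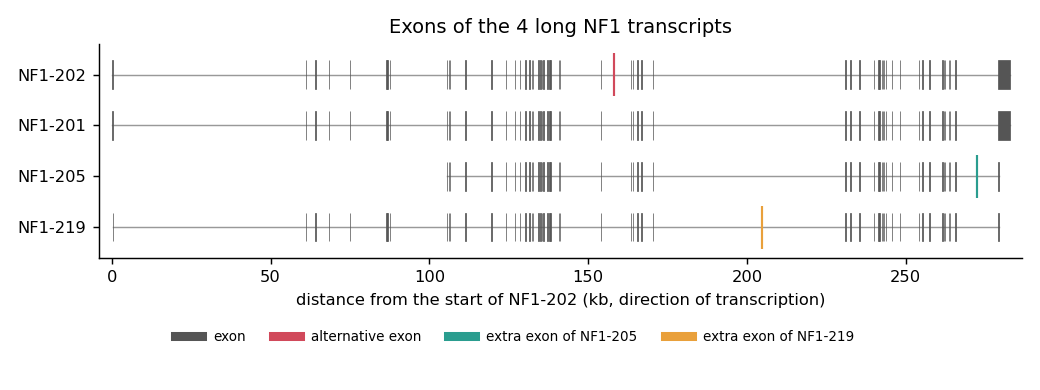
Exons (vertical marks) of the 4 long NF1 transcripts, by distance from the start of NF1-202 in kb. NF1-202 alone among the 4 holds the 63-base alternative exon, and NF1-205 and NF1-219 each hold an exon of their own and lack most of the last exon drawn for NF1-202 and NF1-201. NF1-205 begins at 105.609 kb and lacks the exons before that point.

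Among the 9 members, GRB2 was the gene that passed the adjusted threshold of 0.05 in the edgeR fit, with lower counts in siDDX5. Over all 15204 genes tested, 26 passed (0.171%). The groups did not overlap in CPM for 3 of the 9 members, where 18.0% of all genes tested did not overlap. GRB2 and SOS2 were the 2 lower ones (background 9.21%) and NRAS was the 1 higher (background 8.84%). The log2 fold change was below 0 for 7 members and above 0 for 2, with a median of -0.18 against 0.00 over all genes tested; the signs of GAB1, NF1 and HRAS turned in some alternatives. In these bulk samples a lower level in every cell and a smaller number of cells with the transcript cannot be told apart.

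**Figure D2:**
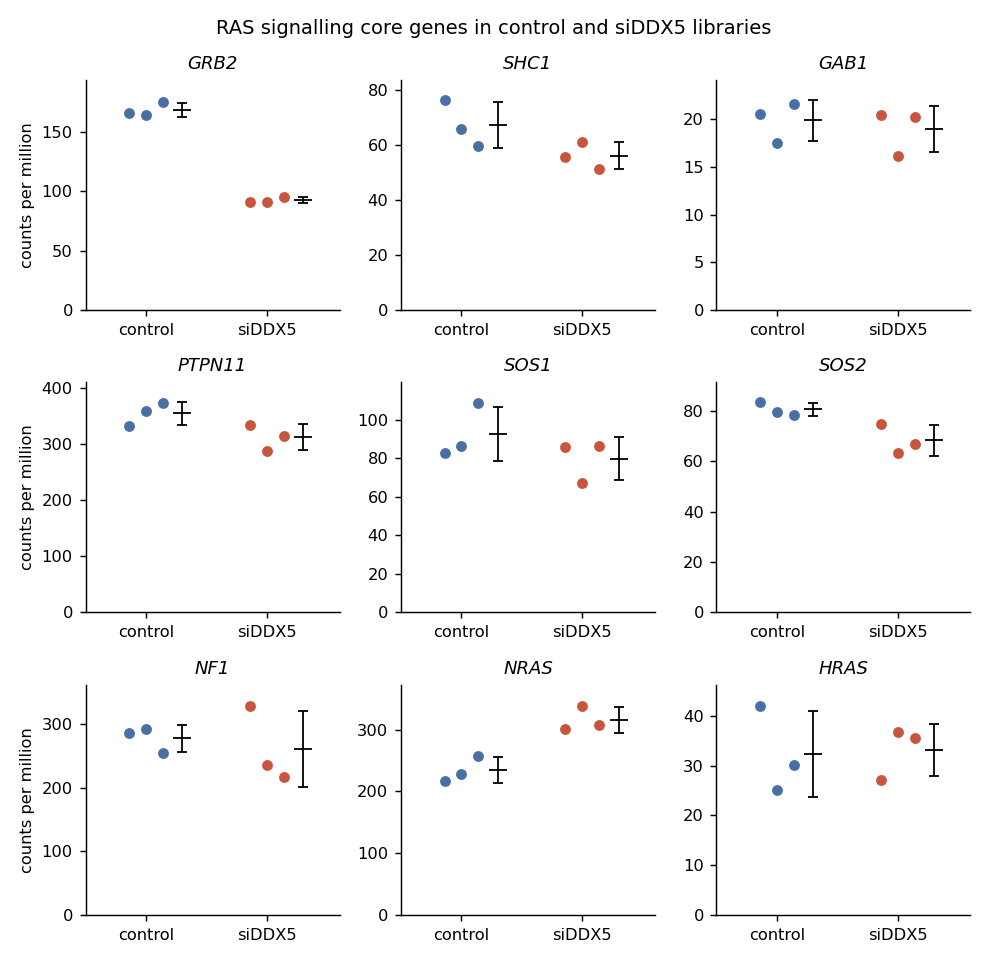
CPM (y axis, from 0) of the 9 genes in each control (blue) and siDDX5 (red) library, replicates 1 to 3 from left to right, with the group mean and SD in black. GRB2 lies at 164.1 to 175.0 in control and 90.7 to 95.4 in siDDX5, NRAS and SOS2 also do not overlap, and the other 6 genes do.

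GRB2, the adaptor that carries SOS1 and SOS2 to receptors, lies at chr17:75318076-75405709 on the minus strand. Its level was 165.5, 164.1 and 175.0 CPM in control replicates 1 to 3 and 90.7, 91.1 and 95.4 CPM in siDDX5 replicates 1 to 3. All 3 siDDX5 libraries were far below all 3 controls, and the spread within each group was small beside the gap. The means were 168.2 ± 5.90 and 92.4 ± 2.62 CPM (SD, n = 3 each), 1.82-fold lower in siDDX5. On the log2 scale this was -0.86 ± 0.095 (SE), with an adjusted p of 0.0132 in edgeR. GRB2 was the 6th gene by p-value of all genes tested. The call was lost without control replicate 1, without any 1 of the 3 siDDX5 libraries, and where TPM or length-scaled counts were tested. Over the 15 alternatives tried the log2 fold change lay between -1.0 and -0.84 and the adjusted p between 1.15e-11 and 0.189.

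SHC1, which links receptors to GRB2 through its own phosphorylated tyrosines, was measured at 76.4, 66.1 and 59.6 CPM in control and 55.8, 61.2 and 51.4 CPM in siDDX5. The groups overlapped in CPM, and the log2 fold change of -0.26 ± 0.12 did not pass (adjusted p = 0.467). It was -0.16 without control replicate 1 and -0.46 with limma on log2(TPM + 1), where it did not pass either (limma adjusted p = 0.368). In TPM the groups of SHC1 did not overlap, with 44.67 to 53.38 in control and 33.65 to 37.78 in siDDX5. GAB1, a docking protein that receives GRB2 and PTPN11, had 20.6, 17.5 and 21.6 CPM in control and 20.5, 16.2 and 20.2 CPM in siDDX5. Its ranges nearly coincided (log2 fold change -0.07 ± 0.15; adjusted p = 0.895), and the fold change lay between -0.29 and 0.03 over the alternatives. PTPN11, the tyrosine phosphatase SHP2 that promotes RAS activation, had 332.0, 360.1 and 373.1 CPM in control and 334.5, 288.9 and 314.3 CPM in siDDX5. Its highest siDDX5 library lay just above its lowest control, and the log2 fold change was -0.18 ± 0.10 (adjusted p = 0.542).

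SOS1, an exchange factor that loads RAS with GTP, was at 83.0, 86.5 and 108.6 CPM in control and 85.9, 67.1 and 86.6 CPM in siDDX5. These ranges overlapped (log2 fold change -0.21 ± 0.14; adjusted p = 0.608), and the fold change was -0.08 without control replicate 3 and -0.10 without siDDX5 replicate 2. SOS2, its close relative, was at 83.7, 79.8 and 78.5 CPM in control and 74.9, 63.3 and 66.8 CPM in siDDX5. All 3 siDDX5 values of SOS2 were below all 3 controls, yet the difference of -0.24 ± 0.10 on the log2 scale did not pass (adjusted p = 0.431). NF1 as a whole gene was at 285.6, 292.3 and 253.5 CPM in control and 328.3, 234.9 and 216.9 CPM in siDDX5. Here siDDX5 replicate 1 was the highest of all 6 libraries and the other siDDX5 libraries were the lowest of the 6, so the fold change of -0.09 ± 0.16 on the log2 scale covers a wide spread (adjusted p = 0.865). It ran from -0.29 without siDDX5 replicate 1 to 0.03 without siDDX5 replicate 3.

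NRAS, a membrane-bound GTPase of the pathway, was at 217.2, 228.7 and 257.6 CPM in control and 300.1, 338.8 and 307.8 CPM in siDDX5. Every siDDX5 library exceeded every control. The means of 234.5 ± 20.8 and 315.6 ± 20.5 CPM (SD, n = 3 each) gave a log2 fold change of 0.43 ± 0.11, which did not pass in edgeR (adjusted p = 0.184) and did in DESeq2 (adjusted p = 0.0215), where 2 of the 9 members passed, GRB2 and NRAS, against 2.70% of all genes with an adjusted p. HRAS, a related GTPase, was at 41.9, 25.2 and 30.1 CPM in control and 27.1, 36.8 and 35.5 CPM in siDDX5. Control replicate 1 was the highest and control replicate 2 the lowest of the 6, and the log2 fold change was 0.03 ± 0.20 (adjusted p = 0.971), with a sign that turned in 6 of 15 alternatives. From 39.0% to 54.2% of the HRAS counts of a library were on copies of the gene outside the primary assembly. Most of these were on ENST00000615062, which has 894 bases against 1070 in HRAS-201. Reads that match several copies equally cannot be told apart.

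Levels can be set against each other between genes in TPM, which divides by transcript length. In control the mean order was PTPN11 at 131.0 TPM, NRAS at 115.8 TPM, GRB2 at 104.5 TPM, NF1 at 66.2 TPM, HRAS at 56.9 TPM, SHC1 at 49.6 TPM, SOS2 at 42.6 TPM, SOS1 at 34.8 TPM and GAB1 at 10.9 TPM. The ranges of PTPN11 and NRAS, of NRAS and GRB2, of NF1 and HRAS and of HRAS and SHC1 overlapped in control, while the other neighbours in this order did not overlap. In siDDX5 NRAS came first at 150.0 ± 2.59 TPM and PTPN11 next at 109.9 ± 21.4 TPM. GRB2, at 53.2 ± 12.7 TPM, moved from the 3rd to the 5th place, below NF1 at 62.7 ± 12.6 TPM and HRAS at 55.3 ± 7.32 TPM, with ranges that overlapped among these 3. The GTPase-activating protein NF1 was thus listed at a lower level per length than GRB2 in every control library. In siDDX5 replicates 1 to 3 NF1 was at 77.2, 54.26 and 56.74 TPM and GRB2 at 66.08, 40.63 and 52.75 TPM. Within each siDDX5 library NF1 was therefore the higher of the pair, although their group ranges overlapped.

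The members' transcripts were compared next as shares of their gene's estimated counts. These counts come from dividing reads among overlapping transcripts, and the SDs and SEs here do not hold the uncertainty of that division. Of the 104 annotated transcripts of the 9 genes, 52 passed the filter. In the edgeR test of transcript usage, 8 members could be tested, since NRAS has 1 transcript, and NF1 was the 1 that passed (adjusted p = 1.05e-11). Over all 10689 genes in that test 1.58% passed. On simulated counts this test made more calls than its threshold allows when transcripts differed in their spread. With limma's diffSplice, chosen after seeing the data, NF1 had an adjusted p of 0.0133. Taken singly for usage, 2 of the members' 51 transcripts in the test passed in edgeR, NF1-201 (adjusted p = 3.72e-12) and GRB2-212 (0.0397), against 0.341% of all transcripts in it. In a separate edgeR test of transcript abundance, in place of share, none of 60813 transcripts passed (4326 had an unadjusted p under 0.05); 6 of those were members' transcripts, whose lowest adjusted p was 0.192.

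NF1-202, which includes the 63-base exon, held most of the NF1 counts in every library: 73.6%, 76.0% and 72.7% in control and 68.4%, 62.7% and 63.5% in siDDX5. The siDDX5 shares were all below the control shares. NF1-201, the form that lacks that exon alone, was close to 0 in control with 0.0, 11.9 and 0.0 estimated counts and had 628.4, 998.7 and 882.8 in siDDX5. Its share of the NF1 counts was 0.063% ± 0.109 in control and 18.3% ± 7.68 in siDDX5 (SD, n = 3 each). By library the siDDX5 shares were 9.48%, 23.1% and 22.5%, so replicate 1 held the lowest. In TPM the share of NF1-201 was 0.040% ± 0.068 in control and 10.5% ± 3.83 in siDDX5.

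Of the other 4 transcripts that skip the exon, the 2 long ones, NF1-205 and NF1-219, had lower means in siDDX5. NF1-205, with its extra 54-base exon, held 725.6, 571.9 and 690.1 estimated counts in control and 525.0, 15.2 and 54.4 in siDDX5. NF1-219, with the 97-base exon, held 580.6, 259.8 and 368.7 in control and 340.7, 50.2 and 73.0 in siDDX5. By counts, both transcripts in siDDX5 replicates 2 and 3 were far below every control, while replicate 1 kept NF1-205 just under the control range and NF1-219 inside it. In TPM, NF1-205 in siDDX5 replicate 1 was at 6.105, inside the control range of 5.958 to 6.57. Replicate 1 thus stood apart from the other siDDX5 libraries in 3 NF1 transcripts at once, and its DDX5 level of 551.3 CPM was the highest of the 3; the part of that level in the NF1 values was not tested. Singly, NF1-205 did not pass the edgeR usage test (adjusted p = 0.808, or 0.0376 when blocked by replicate number), nor did NF1-219 (1.0). The shorter skipping transcripts differed little in share of counts: NF1-215 held 0.996% ± 0.185 of NF1 counts in control and 0.969% ± 0.408 in siDDX5, and NF1-210 0.425% ± 0.205 and 0.244% ± 0.089. By TPM the share of NF1-210 was 3.52% ± 1.74 in control and 1.88% ± 0.550 in siDDX5, with overlapping libraries.

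Set against one another, the 3 long skipping transcripts together amounted to 10.9, 8.46 and 9.71 TPM in control and 14.4, 7.80 and 8.46 TPM in siDDX5. Their sum therefore lay at 9.70 ± 1.23 TPM in control and 10.2 ± 3.64 TPM in siDDX5, with overlapping ranges, while NF1-201 made up 0.318% ± 0.549 of it in control and 69.1% ± 31.6 in siDDX5. NF1-202 had 30.5, 32.3 and 27.4 TPM in control and 34.1, 19.3 and 19.7 TPM in siDDX5. By group means NF1-201 was higher in siDDX5, while the other long skipping transcripts and NF1-202 were lower. NF1-202 had 30.1 ± 2.45 TPM in control and 24.4 ± 8.42 TPM in siDDX5, with overlapping ranges. In siDDX5 replicate 1 both NF1-202 and the sum of the 3 long skipping transcripts were above every control. Whether reads passed from one of these transcripts to another was not tested.

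All NF1 transcripts that hold both exons flanking the 63-base exon can be divided by whether they include it. Of these 7, the 5 that skip it held 20.9%, 16.3% and 20.3% of the counts in control and 26.0%, 28.8% and 29.9% in siDDX5. On this scale the groups did not overlap, with means of 19.2% ± 2.52 and 28.2% ± 2.01 (SD, n = 3 each) and a difference of 9.06 percentage points. In TPM, which divides by length, the skipping share was 32.4%, 28.1% and 29.5% in control and 33.2%, 32.0% and 35.0% in siDDX5. There the groups overlapped and the difference was 3.42 percentage points. NF1-201, at 12362 bases, is longer than NF1-205 at 7787 bases and NF1-219 at 8788 bases, so that 1 molecule of it gives more counts. The short NF1-210, at 1114 bases, weighs more in TPM, where its mean was 2.36 ± 1.23 in control and 1.15 ± 0.243 in siDDX5. Counting the 3 long skipping transcripts against NF1-202 alone, a choice made after the values were seen, gave 24.4% ± 3.16 and 29.5% ± 0.656 of TPM without overlap. Protein-coding transcripts alone gave 17.4% ± 1.79 in control and 26.5% ± 2.08 in siDDX5 by TPM, also without overlap. The amount of exon skipping hence depended on the scale and on the transcripts counted. Among the 7 transcripts with both flanking exons, the larger part included the exon in both groups on either scale. Of all NF1 TPM, NF1-202 held 45.4% ± 1.84 in control and 38.2% ± 5.21 in siDDX5.

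**Figure D3:**
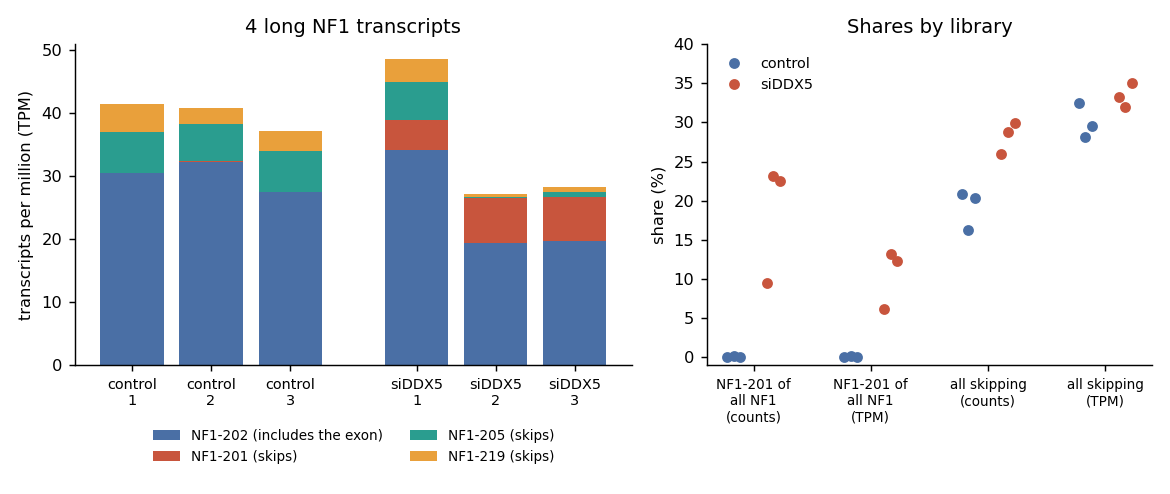
Left, TPM of the 4 long NF1 transcripts stacked by library; right, the share (%) of NF1-201 in all NF1 and of all exon-skipping transcripts among those with both flanking exons, by counts and by TPM, 1 point per library. NF1-201 appears in the siDDX5 bars, where NF1-205 and NF1-219 are small in replicates 2 and 3, and the skipping share separates the groups by counts but overlaps by TPM.

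The remaining NF1 transcripts named here were smaller. NF1-216, annotated as a target of nonsense-mediated decay, held 4.13% ± 1.10 of NF1 counts in control and 4.37% ± 0.372 in siDDX5. NF1-208 held 0.517% ± 0.177 and 1.46% ± 1.50, with 136.2 estimated counts in siDDX5 replicate 2 and 19.0 to 37.1 in the others of that group. NF1-204 held 1.06% ± 0.398 and 0.834% ± 0.309. NF1 has many partial copies in the genome. The deposited data list 12 NF1 pseudogenes, and the highest estimated count on any of them was 1.0.

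GRB2 counts were spread over transcripts with different first exons that encode the same 217 residues. GRB2-205 (ENST00000392564) starts at an internal first exon and held 1846, 2115 and 1920 estimated counts in control and 626.6, 781.6 and 872.0 in siDDX5. GRB2-202 (ENST00000316804) starts further upstream and held 1797, 981.9 and 1792 in control and 991.7, 798.3 and 730.9 in siDDX5. The groups of GRB2-205 were far apart, while control replicate 2 of GRB2-202 fell beside the siDDX5 values. Grouped by first exon after the values were seen, the 5 transcripts with an upstream start summed to 39.9, 31.7 and 46.9 TPM in control and 24.8, 17.8 and 19.8 TPM in siDDX5. The 5 with an internal start summed to 39.5, 53.0 and 44.4 TPM in control and 24.0, 19.1 and 26.0 TPM in siDDX5. Both sums were lower in siDDX5 without overlap, and their shares of GRB2 overlapped between groups on both scales. By TPM the share was 37.7% ± 6.35 in control and 39.6% ± 3.59 in siDDX5 for the upstream starts and 44.1% ± 9.63 and 44.2% ± 6.88 for the internal ones. By counts it was 45.7% ± 7.99 and 50.5% ± 6.91 for the upstream starts and 51.4% ± 8.77 and 47.0% ± 8.44 for the internal ones, and GRB2-202 alone held 37.5% ± 8.43 and 48.0% ± 5.96.

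GRB2-212 (ENST00000648046) went furthest. It is annotated as a target of nonsense-mediated decay, and a 180-base intron at chr17:75319831-75320010 is spliced out downstream of its coding region. It held 250.7, 280.5 and 343.3 estimated counts in control and 19.1, 0.0 and 0.0 in siDDX5. Its share of GRB2 counts was 7.32% ± 1.23 in control and 0.347% ± 0.602 in siDDX5 (SD, n = 3 each), with no overlap. In the edgeR usage test GRB2-212 as a single transcript had an adjusted p of 0.0397, which was 0.166 with the replicate number as a block. GRB2 as a gene did not pass, at an adjusted p of 0.0568, which was 0.241 with the block and 0.651 with limma's diffSplice.

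**Figure D4:**
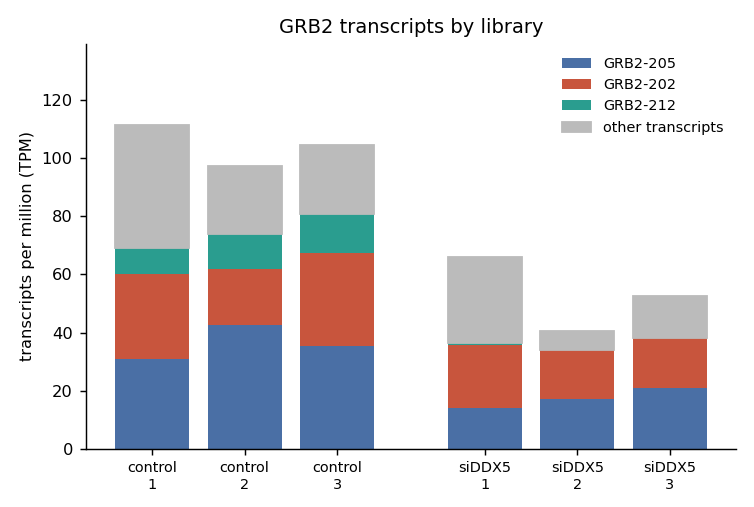
TPM of GRB2 transcripts stacked by library (y axis from 0). GRB2-205 and GRB2-202 are both shorter in siDDX5, GRB2-212 is visible in the control bars and at 0.911, 0.0 and 0.0 TPM in siDDX5.

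A 123-base coding exon of GRB2 at chr17:75325898-75326020 (minus strand) holds 41 codons of the SH2 domain, the part that binds phosphorylated receptors. A form without it, known as GRB3-3, lacks a working SH2 domain. Its letters show the stretch that this form leaves out, in capitals between 15 bases of each neighbour.
GRB2 exon absent from GRB2-204: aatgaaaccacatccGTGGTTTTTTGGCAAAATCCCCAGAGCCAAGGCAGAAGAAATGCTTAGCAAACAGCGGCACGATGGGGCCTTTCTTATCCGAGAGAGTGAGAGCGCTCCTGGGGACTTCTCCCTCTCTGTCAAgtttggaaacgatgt
Transcripts without this exon held 1.23%, 0.0% and 0.0% of the counts of GRB2 transcripts that can be divided by it in control and 2.34%, 2.11% and 2.90% in siDDX5. The siDDX5 sums were higher in all 3 libraries, but they add 2 transcripts. GRB2-201, which was below the filter, held 26.4 estimated counts in siDDX5 replicate 1 and 0.0 in the other 5 libraries. GRB2-204 alone held 1.16%, 0.0% and 0.0% of GRB2 counts in control and 0.769%, 2.07% and 2.82% in siDDX5, so that the groups overlapped, at no more than 49.3 estimated counts in any library.

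For the other members no change of usage passed (each with an adjusted p of 1.0 in edgeR). SHC1 is transcribed as a long form, p66, and shorter p52 forms; p66 is known for roles in oxidative stress and p52 for signalling to RAS. SHC1-210, which encodes 584 residues, held 31.7% ± 3.52 of SHC1 counts in control and 35.1% ± 4.69 in siDDX5. The shorter SHC1-204 held 28.3% ± 3.31 and 34.1% ± 9.73. SHC1-205 held 22.2% ± 2.46 and 16.6% ± 12.4, with 50.8 estimated counts in siDDX5 replicate 3 and 337.2 in replicate 1, so the short forms traded places between libraries of 1 group. SHC1-207, a short form of 200 residues, held 5.98% ± 0.263 and 4.85% ± 0.109, without overlap.

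SOS2 divided its counts among 3 transcripts, of which the full-length SOS2-201 held 63.1% ± 1.01 in control and 68.2% ± 1.54 in siDDX5, without overlap. SOS2-202 held 19.7% ± 2.02 and 15.4% ± 0.466, also without overlap, and SOS2-204 16.9% ± 2.24 and 16.1% ± 1.89. SOS1 counts lay on SOS1-202 for 70.9% ± 4.43 in control and 74.5% ± 4.84 in siDDX5 and on SOS1-201 for 25.4% ± 5.06 and 22.0% ± 3.33. PTPN11-201, the main form of SHP2, held 94.9% ± 0.485 and 96.2% ± 1.66. GAB1-202 held 73.4% ± 2.17 and 76.1% ± 5.13 of GAB1, and GAB1-203 21.2% ± 2.04 and 20.5% ± 5.30. HRAS-201 held 41.6% ± 1.67 of HRAS in control and 48.7% ± 3.93 in siDDX5 without overlap, while ENST00000615062, a copy outside the primary assembly, held 42.9% ± 4.57 and 34.9% ± 5.97.

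The rest of the pathway was described with 111 other genes in 9 lists, which do not hold every gene of the pathway. Of these, 99 passed the filter on low counts and none passed the adjusted threshold in edgeR. At an unadjusted p under 0.05 there were 17 (17.2%, against 11.3% of all genes). DESeq2 called 4, where it called 2.70% of all genes with an adjusted p. With the replicate number as a block edgeR called 6 (6.06%), against 2.49% of all genes. In 21 of the 99 the groups did not overlap (21.2%, against 18.0%), with 16 lower and 5 higher in siDDX5. Over all genes tested 9.21% were lower without overlap and 8.84% higher. The median log2 fold change was -0.08 against 0.00 over all genes tested.

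The 6 genes called with the block, named after their values were seen, acted at different steps. DUSP7, a phosphatase that inactivates ERK, had 24.9, 23.0 and 27.1 CPM in control and 13.9, 14.8 and 16.1 CPM in siDDX5 (log2 fold change -0.75 ± 0.13; edgeR adjusted p = 0.0593, and 0.0125 with the block). ETV1, an ETS factor downstream of ERK, had 27.1, 26.4 and 22.8 CPM in control and 17.4, 16.4 and 13.9 CPM in siDDX5 (-0.68 ± 0.14; adjusted p = 0.0896, and 0.0133 with the block). SPRED2, of the SPRED family of inhibitors that bring neurofibromin to the membrane, had 59.1, 53.8 and 53.2 CPM in control and 40.7, 32.4 and 31.4 CPM in siDDX5 (-0.67 ± 0.13; adjusted p = 0.0774, and 0.0111 with the block). All 3 genes were lower in each siDDX5 library than in any control.

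RASA2, a GTPase-activating protein for RAS like NF1, had 36.1, 33.2 and 42.3 CPM in control and 51.7, 50.2 and 52.2 CPM in siDDX5 (log2 fold change 0.46 ± 0.12, and 0.28 with limma on log2(TPM + 1); edgeR adjusted p = 0.186, and 0.0426 with the block). Its relative RASA3 went the other way, from 57.2, 55.7 and 52.6 CPM to 43.5, 44.4 and 36.7 CPM (-0.41 ± 0.11; adjusted p = 0.229, and 0.0490 with the block). RIT1, a RAS-like GTPase, had 33.4, 44.9 and 44.1 CPM in control and 49.0, 63.5 and 55.0 CPM in siDDX5 (0.45 ± 0.15; adjusted p = 0.295, and 0.0382 with the block). The GTPase-activating proteins RASA2 and RASA3 thus differed in opposite directions, neither past the edgeR threshold without the block. NF1, at 253.5 to 292.3 CPM in control, had 328.3, 234.9 and 216.9 CPM in siDDX5, on both sides of its control range.

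Since no list had a gene past the edgeR threshold without the block, the gene with the largest log2 fold change at 5 CPM or more was taken from each; SPRED2 and RIT1, above, were those of their lists, and the other 7 follow. IGF1R, a receptor upstream of GRB2, had a log2 fold change of 0.33 ± 0.14, and CBLB, a ubiquitin ligase of activated receptors, of -0.46 ± 0.18. ICMT, which methylates the C terminus of RAS proteins, had -0.32 ± 0.09, with 243.8 to 264.6 CPM in control and 202.7 to 204.4 CPM in siDDX5. RGL2, an effector of RAS, had -0.31 ± 0.12, MAP2K2, the kinase MEK2, -0.24 ± 0.16, and the exchange factor RASGRP3 -0.10 ± 0.14. Several of these sizes moved with the setting: IGF1R was 0.10 with limma on log2(TPM + 1), RGL2 -0.57 with the primary-assembly join, and MAP2K2 -0.10 without control replicate 1, -0.39 without siDDX5 replicate 2 and -0.14 without siDDX5 replicate 3. RASGRP3 lay between -0.14 and 0.03 over the alternatives. EGR1, an early target of ERK, had the largest difference at -1.61 ± 0.57, but it rested on control replicate 1 at 147.1 CPM, where the other controls held 35.5 and 28.8 CPM and siDDX5 15.4, 34.4 and 19.6 CPM. Without that library it was -0.47.

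**Figure D5:**
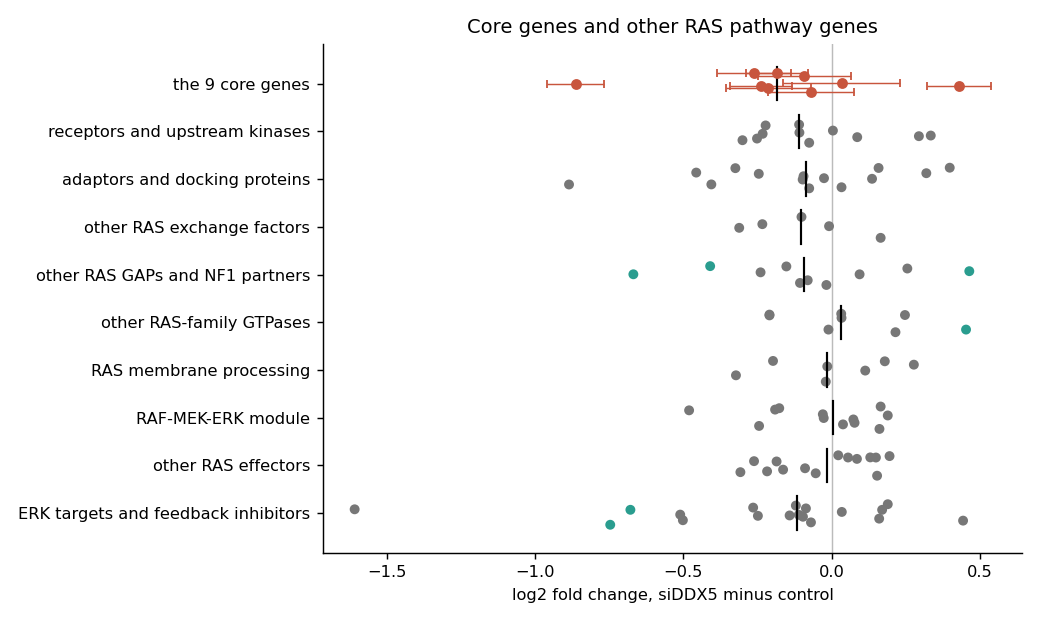
Log2 fold change, siDDX5 minus control, of the 9 core genes (red, with SE) and of the 99 tested genes of 9 other pathway lists, 1 point per gene, with each list's median as a black line and the 6 genes called with the replicate block in green. GRB2 at -0.86 and NRAS at 0.43 stand at the ends of the core genes, and the list medians lie between -0.12 and 0.03.

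The genes whose log2 CPM followed GRB2 most closely over the 6 libraries, among 10988 genes with at least 5 CPM on average and counts in every library, were ZNRF2 with a Pearson r of 0.997, FKBP14 with 0.994, DPF1 with 0.994, DVL2 with 0.994 and RCC2 with 0.992. The log2 fold changes of these genes ranged from -0.85 for ZNRF2 to -0.18 for FKBP14, whose levels were 74.5 to 74.9 CPM in control and 65.6 to 66.3 CPM in siDDX5. These values describe 6 libraries in 2 groups, in which a gap between the groups that is wide beside the spread within them gives a high r whatever its size in folds.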

How the data were processed

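RNA of 3 control and 3 siDDX5 Rh30 samples was made into stranded TruSeq mRNA libraries, per the labels' protocols. Per the submitters' processing notes, bcl2fastq 2.20, FastQC 0.11.8, cutadapt 1.11 and kallisto 0.46.0 were used with GRCh38 (hg38); the annotation release is not given in the sources used here. The authors deposited, per the file headers, estimated counts and TPM for 188753 transcripts per library; from 91.3% to 91.9% of the counts above 0 were not whole, and none of the tables holds an estimate of the error of dividing reads among transcripts.

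Transcripts were joined to genes with GENCODE release 29, 169797 by identifier and 15321 by symbol, and 3635 were not joined; 99.26% to 99.32% of the counts were joined. Counts summed per gene were rounded and tested with edgeR 4.0.16 (quasi-likelihood test, TMM, low-count filter, group as the only term, R 4.3.3), and transcript usage with its diffSpliceDGE and Simes adjustment; all adjusted p-values are Benjamini-Hochberg over all features. An SE is the log2 fold change divided by the root of F. A library total of 18202402 to 26156858 puts 3 counts at 0.115 to 0.165 CPM. The steps were tested on simulated data.

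The members and the pathway lists were chosen with earlier results of these data known. Named in full were the 9 members, DDX5, in each list the called genes or else the one of largest fold change at 5 CPM or more, transcripts with at least 5% of a gene's counts (1% for NF1, at most 4 for the other genes), and the 5 genes most like GRB2. Deviations of same-numbered libraries from their group means correlated at 0.21, 0.27 and 0.56 over 15204 genes. The titles give the replicate numbers but name no shared batch. The main fits therefore left the number out, and it was used as a block in an alternative fit only. The fit with this block lowered the biological coefficient of variation from 15.8% to 10.4%. Alternatives were DESeq2 1.42.0, limma 3.58.1 on log2(TPM + 1) and log2(TPM + 0.1), other filters, length-scaled counts, the primary-assembly join and leaving out each library.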

Additional observations from a re-analysis of the deposited data

How the results depend on the processing

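The count of members past the gene-level threshold, 1 as reported, was 2 with DESeq2 (GRB2 and NRAS), 0 with length-scaled TPM counts and with limma on log2(TPM + 1) or log2(TPM + 0.1), and 0 to 1 with each library left out. For the other pathway genes the count of 0 became 4 with DESeq2, 3 without a filter and 6 with the replicate block. Members called for transcript usage numbered 2 in place of 1 (GRB2 joining NF1) without a filter, and 1 to 2 with each library left out, with 2 without control replicate 1 or siDDX5 replicate 1. The difference in the share of NF1-201 was 10.5 points by TPM against 18.3 by counts, and 15.9 to 22.7 with each library left out. The difference in exon skipping was 3.42 points by TPM and 12.9 with protein-coding transcripts alone against 9.06, and 7.62 to 10.2 with each library left out. The alternative edgeR fit with replicate number as a block called GRB2 alone among the members, with an adjusted p of 0.00232, and NF1 alone for usage (5.94e-09). Signs turned for genes that passed in no fit: RASGRP3 to 0.032 with length-scaled counts and HRAS to -0.032 with both limma settings. With each library left out, GAB1 ran from -0.151 to 0.031, above 0 without siDDX5 replicate 2, NF1 from -0.293 to 0.031, above 0 without siDDX5 replicate 3, and HRAS from -0.114 to 0.269, below 0 without control replicate 2 or 3 or siDDX5 replicate 2 or 3. The cause was not tested. Transcripts near 0 in a group, such as NF1-201 in control, rest on a division of reads whose error was not measured.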
